A study of Homo sapiens with 9 samples.

Results

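Of 1348 protein-coding genes listed with RNA editing left by GPATCH8-ADAR or ADAR-SUGP1 in 293T cells, 141 (10.5%, 95% exact binomial interval 8.88 to 12.2) carried editing sites in their coding sequence and none in the 3′ UTR. These genes were chosen by their summed site counts: at least 1 coding site in either list and 0 sites in the 3′ UTR in both. Coding and 3′ UTR counts therefore describe the choice and are no finding. Most of the genes stood at the lower edge of the rule, 128 with 1 coding site, 11 with 2 and 2 with 3. The 3′ UTR condition removed 2 of the 143 genes with a coding site. Of all protein-coding genes, 20.3% on the GPATCH8-ADAR list and 17.8% on the ADAR-SUGP1 list had a 3′ UTR site. Most members had only 1 body site with the fusion that gave their coding site, so no room for a 3′ UTR site with it. Nothing is therefore read from the small number removed. Of the 2 genes removed, FAM160B2 had 1 coding, 1 3′ UTR and 2 stop-codon sites with ADAR-SUGP1. TUBGCP2, a component of the γ-tubulin ring, had 1 coding site with ADAR-SUGP1 and 1 3′ UTR site with GPATCH8-ADAR.

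The cells were 293T, an established human embryonic kidney line, and every library is labelled SF3B1WT. GPATCH8-ADAR (2 libraries) and a non-targeting control fusion built with MCP (2 libraries) were sequenced in run 1. ADAR-SUGP1 (2 libraries), its MCP control (2 libraries) and untransfected cells (1 library) were sequenced in run 2. Cells carrying a fusion were taken 24 h after transfection of its expression plasmid and sorted for GFP, so the fusions were made from introduced plasmids on top of the cells' own proteins. The deposited lists give 1 count per transcript, region and fusion, and a site entered them only if both libraries of the fusion showed it and neither the cells' own editing nor the control fusion did, per the series' design text. No values per library, editing levels or read coverage come with them, so the depth behind a site is unknown, no test between libraries could be made, and fusion and run cannot be told apart. They are lists of sites and hold no expression values, so the cell type was not checked against markers. Intervals given below cover counting error over genes only.

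TRIBE reads out where an RNA-binding protein has been by fusing it to the catalytic domain of ADAR, an enzyme that deaminates adenosine to inosine. Inosine is read as guanosine by the sequencer and by the ribosome, so a site in coding sequence can change a codon, whereas sites in introns are lost from the transcript when it is spliced. GPATCH8 and SUGP1 both hold a G-patch, a motif by which proteins bind and stimulate DEAH-box RNA helicases of the spliceosome, and both are linked to branchpoint choice through SF3B1.

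With GPATCH8-ADAR 15 members had a coding site, against a background of 3.01% of the 498 protein-coding genes on its list, and with ADAR-SUGP1 126 members had one, against 12.9% of 995. Both shares follow from the rule. The members held 156 of the 158 coding sites in the lists, 17 with GPATCH8-ADAR and 139 with ADAR-SUGP1. No member had a coding site with both fusions; only 5 were on both lists at all, so nothing is read from this zero.

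CUL7 and FCF1 carried 2 coding sites each with GPATCH8-ADAR and the other 13 genes carried 1. CUL7 is the scaffold of a cullin-RING ubiquitin ligase. FCF1 is a nucleolar protein of small ribosomal subunit assembly, and its transcript ENST00000554064.1 also held 2 stop-codon sites. The genes with 1 coding site were the transporter ABCC10, the calcium-dependent kinase CAMK2G, the cadherin CDH24, the kinetochore protein CENPL, the Toll pathway and complex I assembly factor ECSIT, the formin-binding protein FNBP4, the SMN complex subunit GEMIN6, the γ-tubulin complex partner MZT2B, the BEACH-domain protein NBEAL2, the GPI-anchor enzyme PIGO, the lipoprotein receptor SCARB1, the endoplasmic reticulum stress protein SERP1 and the zinc finger protein ZSCAN32. All 17 body sites of these 15 genes in this list were coding sites.

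With ADAR-SUGP1, B4GALNT4 and GVQW1 held the most coding sites, 3 each. B4GALNT4 is a glycosyltransferase that adds N-acetylgalactosamine to glycans, and it also had 1 stop-codon site. GVQW1 is named for a peptide motif encoded in Alu repeats, the main substrate of the cell's own editing, and was listed with coding sites alone. The 9 genes with 2 coding sites were the guanine nucleotide exchange factor ARHGEF10L, the cullin CUL9, the lysosome-positioning protein DEF8, the deacetylase HDAC10, the laminin chain LAMB2, the leucine-rich repeat gene LRRC24, the DNA glycosylase MUTYH, the sialyltransferase ST3GAL4 and the zinc finger gene ZNF429. In HDAC10 and DEF8 the 2 coding sites were counted on 2 different transcripts, 1 on each. The lists give no positions, so in these genes 1 site counted on both transcripts cannot be told from 2 sites. In every other member of either list the coding count came from a single transcript. The remaining 115 genes had 1 coding site each.

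**Figure D1:**
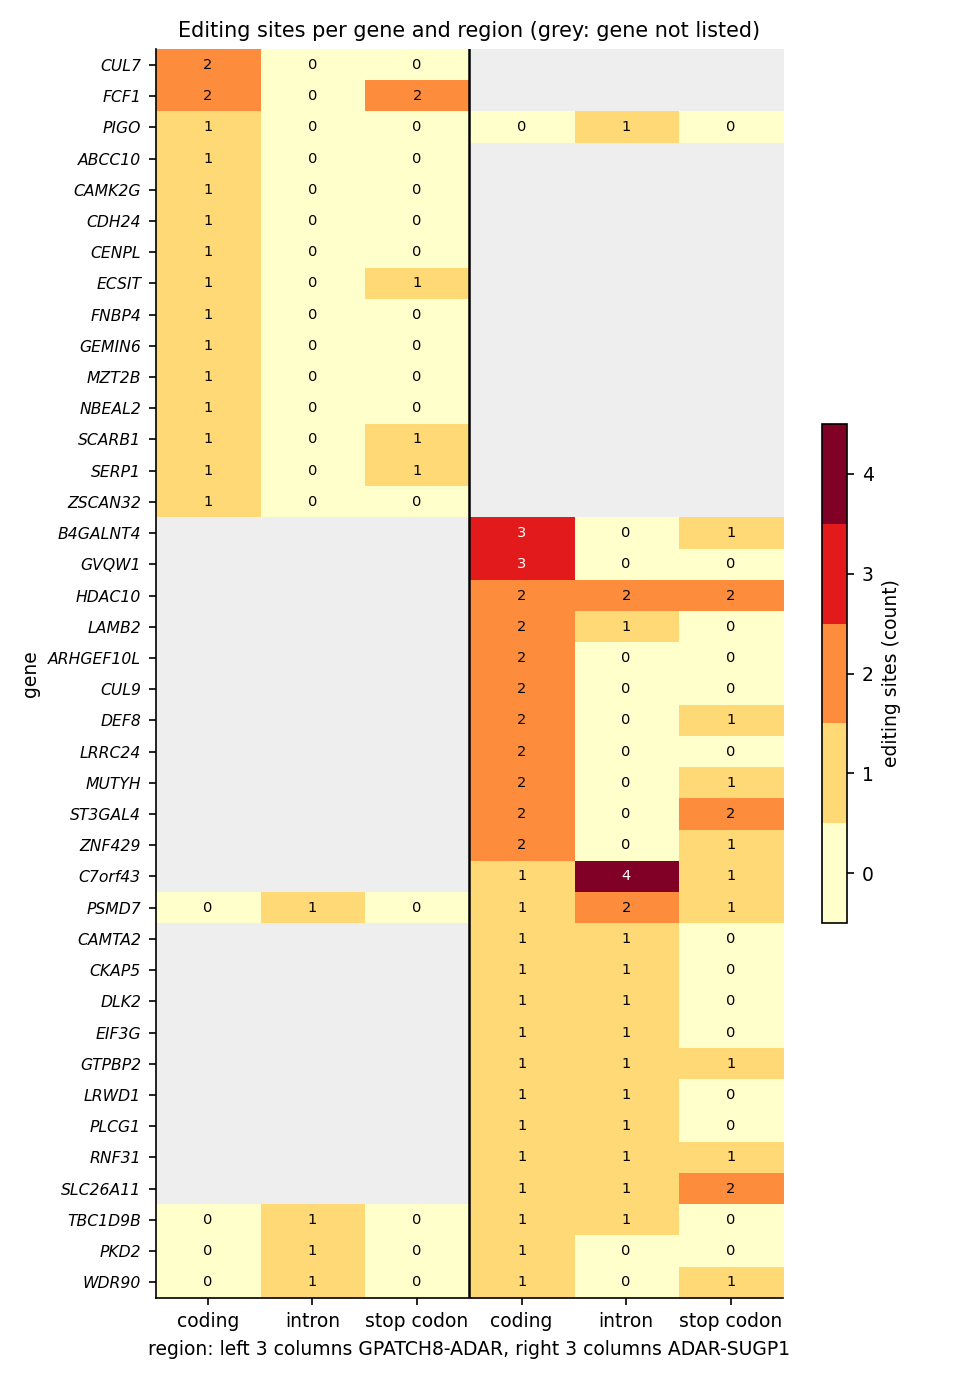
Number of editing sites (colour and printed count) in coding sequence, introns and the stop-codon region for 40 genes, one per row, with GPATCH8-ADAR in the left 3 columns and ADAR-SUGP1 in the right 3; grey marks a gene not on that list. Shown are all 15 genes that GPATCH8-ADAR edited in coding sequence and, for ADAR-SUGP1, those with 2 or more body sites or listed for both fusions; no row has coding sites on both sides, and the highest count is the 4 intronic sites of C7orf43.

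Few of the members had an intronic site, and most had no room for one. With GPATCH8-ADAR 0 of the 15 genes had an intronic site (exact binomial upper bound 21.8%), where 74.3% of all protein-coding genes on the list had one. With ADAR-SUGP1 14 of 126 did (11.1%, interval 6.21 to 17.9), where the background was 63.1%. The rule sets at least 1 site of each gene as coding, and 13 of the 15 and 103 of the 126 genes had no further site in the transcript body, so the gap to the background follows in large part from the choice of members. At least 2 body sites were present in 2 of the GPATCH8-ADAR genes (background 29.5%) and in 23 of the ADAR-SUGP1 genes (18.3%, background 19.9%). Of these 23 genes 14 also had an intronic site (60.9%, interval 38.5 to 80.3). In the other 9 all body sites were coding, and some of them also had stop-codon sites, which are counted apart. Genes without a coding site have every body site free to lie in an intron, so these shares are not set against theirs.

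The 14 genes with both coding and intronic sites were led by C7orf43 (current symbol TRAPPC14), a subunit of the TRAPP vesicle-tethering complex, with 4 intronic sites on ENST00000457641.1 and 1 coding site on ENST00000394035.2. HDAC10 had 2 intronic sites, as did PSMD7, a subunit of the proteasome lid. The other 11 had 1 intronic site each. They were the transcription activator CAMTA2, the microtubule polymerase CKAP5, the Notch ligand relative DLK2, the translation initiation subunit EIF3G, the GTP-binding protein GTPBP2, the laminin LAMB2, the origin recognition partner LRWD1, the phospholipase PLCG1, the linear-ubiquitin ligase RNF31, the anion transporter SLC26A11 and the Rab GTPase-activating protein TBC1D9B. In 8 of the 14 a coding and an intronic site were counted on the same transcript, and in the other 6 (C7orf43, DLK2, EIF3G, GTPBP2, PSMD7 and TBC1D9B) they were counted on different transcripts of the gene. What is exon in a transcript can be intron in another, and the lists give no positions to tell how these sites lie.

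No member had a 5′ UTR site, where the backgrounds were 1.81% with GPATCH8-ADAR and 5.73% with ADAR-SUGP1. Of genes with a coding site on the list, only the 2 and 23 with 2 or more body sites could have held one. So could the 4 and 1 members listed without a coding site, whose only body site was intronic. Nothing is read from these zeros. Promoter sites were likewise at 0, with backgrounds of 0.602% and 0.603%.

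**Figure D2:**
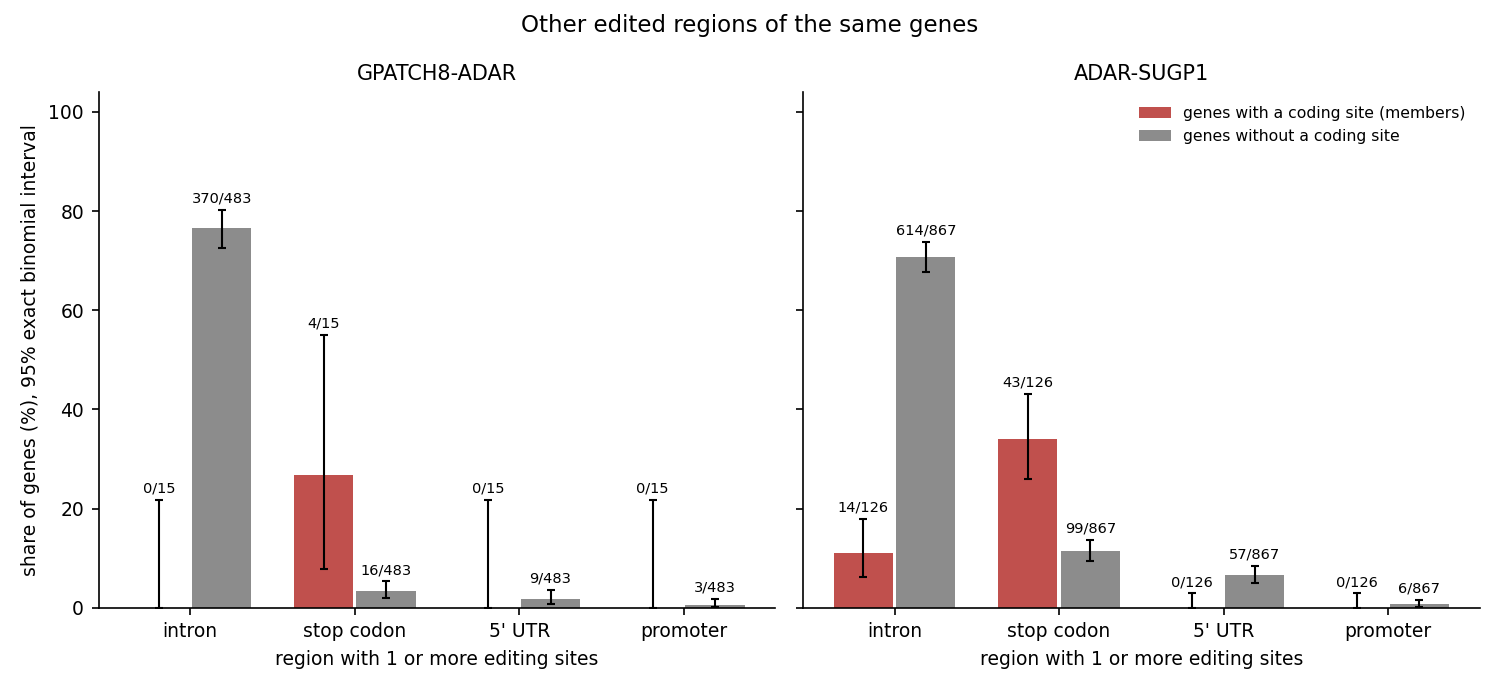
Share of genes (%, bars, with 95% exact binomial intervals and counts above) that had at least 1 site in introns, the stop-codon region, the 5′ UTR or the promoter, for genes with a coding site (red) and protein-coding genes of the same list without one (grey). The red bars are lower than the grey ones for introns (11.1% and 70.8% with ADAR-SUGP1) and higher for the stop codon (34.1% and 11.4%). Most red genes have 1 body site, which the rule sets as coding. A site at the end of the coding sequence may be counted as coding and as stop codon, so neither difference is independent of the rule.

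The stop-codon region, which the lists count apart from the transcript total, was edited in 4 of the 15 genes with GPATCH8-ADAR (26.7%, interval 7.79 to 55.1, background 4.02%) and in 43 of the 126 with ADAR-SUGP1 (34.1%, interval 25.9 to 43.1, background 14.4%). A site at the end of the coding sequence may be counted in both columns, so these counts are not independent of the rule. On the same transcript as a coding site, a stop-codon site was counted in 2 genes with GPATCH8-ADAR (FCF1 and SERP1) and in 24 with ADAR-SUGP1. In 2 and 19 genes it was counted only on another listed transcript. ACY1, an aminoacylase, is an example of the latter, with its coding site on ENST00000458031.2 and its stop-codon site on ENST00000469863.1, a transcript with 0 body sites. The pattern was the same in ECSIT and SCARB1 with GPATCH8-ADAR, and with ADAR-SUGP1 in the homeobox gene HOXA9, the TGF-β binding protein LTBP3, the glycosylase MUTYH, the polycystin PKD1, the sialyltransferase ST3GAL4 and the ribonuclease subunit RNASEH2C, among others.

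More than 1 transcript was listed for 7 of the 15 genes edited by GPATCH8-ADAR (46.7%, background 8.63%) and for 50 of the 126 edited by ADAR-SUGP1 (39.7%, background 19.6%). This number is not independent of the stop-codon count: 2 of the 4 and 21 of the 45 member transcripts with a stop-codon site had no body site, so that the site itself may have put an extra transcript of the gene on the list. With ADAR-SUGP1 and several listed transcripts, 66.0% of genes with a coding site (33 of 50, interval 51.2 to 78.8) had a stop-codon site. In genes without a coding site it was 50.3% (73 of 145, interval 41.9 to 58.7). Among genes with 1 listed transcript the shares were 13.2% (10 of 76, interval 6.49 to 22.9) and 3.60% (26 of 722, interval 2.37 to 5.23). In the 10 genes both counts lie on that transcript, so 1 site may have been counted in both columns. Nothing is read from these differences, which were not tested. These 10 genes were B4GALNT4, the cyclin-dependent kinase inhibitor CDKN2D, KIAA0232, the secreted glycoprotein LGALS3BP, the synaptic scaffold MAGI2, the HUSH complex subunit MPHOSPH8, the clone-named entry RP11-552F3.12, the ubiquitin ligase TRIM32, the chemokine XCL1 and ZNF429. With GPATCH8-ADAR 0 of 8 genes with 1 listed transcript and 4 of 7 with several had a stop-codon site. Listed transcripts with 0 in every region made up 7 of the 24 rows that these genes had in the GPATCH8-ADAR list and 28 of 183 in the ADAR-SUGP1 list.

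**Figure D3:**
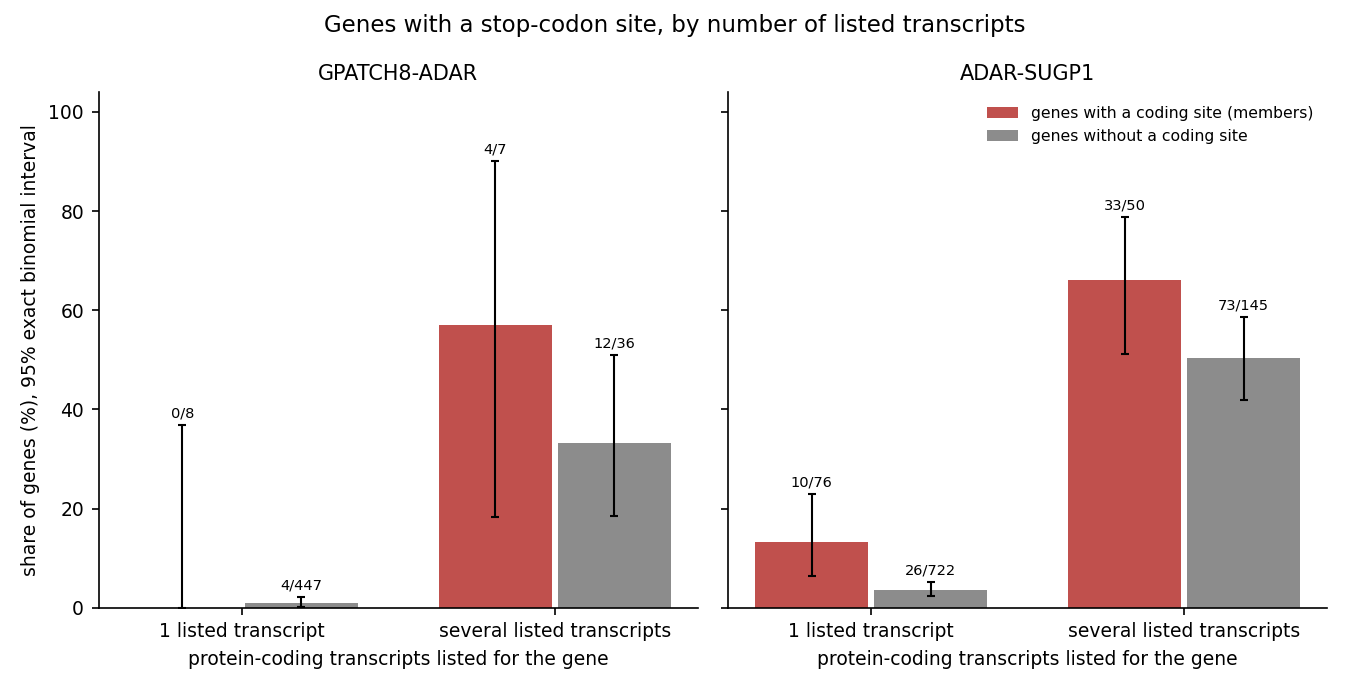
Share of genes (%, bars, with 95% exact binomial intervals and counts above) with a stop-codon site, split by whether 1 or several protein-coding transcripts of the gene were listed, for genes with a coding site (red) and without (grey). Shares are higher in both colours where several transcripts were listed (66.0% and 50.3% against 13.2% and 3.60% with ADAR-SUGP1), a split that stop-codon sites on extra transcripts partly set.

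Of the 141 genes 5 were listed for both fusions (3.55%, interval 1.16 to 8.08), against a background of 10.8% of all 1348 genes. By list, they were 5 of 19 members on the GPATCH8-ADAR list, where 145 of 498 genes were shared. On the ADAR-SUGP1 list they were 5 of 127 members, where 145 of 995 genes were shared. A member on both lists had to lack a 3′ UTR site on each, so this overlap is not independent of the rule. The difference was not tested. In each of the 5, coding sequence was edited with 1 fusion and an intron with the other. The regions were not fully split by fusion, since PSMD7 and TBC1D9B also had intronic sites with ADAR-SUGP1 (2 and 1). PIGO, which adds ethanolamine phosphate to GPI anchors, had 1 coding site with GPATCH8-ADAR and 1 intronic site with ADAR-SUGP1. The other 4 had their coding site with ADAR-SUGP1 and 1 intronic site with GPATCH8-ADAR. They were the calcium channel PKD2, PSMD7, TBC1D9B and the cilium-linked WD-repeat gene WDR90. Of the genes that were no members, 140 of 1207 were on both lists (11.6%, interval 9.85 to 13.5).

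Among lists of genes set by symbol patterns, the ubiquitin system held the most members, 10 of the 41 such genes on either list (7.09% of members, 3.04% of all listed genes). CUL7 and CUL9 are related cullins, edited at 2 coding sites each by different fusions. FBXO18, FBXO27 and FBXW9 are F-box proteins, the substrate adaptors of cullin ligases, and KLHL8 is an adaptor of the BTB-Kelch kind. RNF31, TRIM32 and the very large protein UBR4 are ubiquitin ligases, and PSMD7 belongs to the proteasome. Outside the list by its patterns, ZNRF3, a membrane ligase that limits Wnt receptors, and LRR1, an adaptor of CUL2 ligases, had 1 coding site each with ADAR-SUGP1. Besides CUL7 all of these had their coding sites with ADAR-SUGP1.

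The list of small GTPases and their regulators held 5 members of 19 listed genes (3.55% of members, 1.41% of all). They were the GTPase-activating protein ARHGAP32, ARHGEF10L, the Rab exchange factor DENND4B, the junction protein PLEKHA7, taken in by its name, and TBC1D9B. Of like function but other names were BCR, the heterotrimeric G-protein subunit GNA12, the Ral exchange factor RGL4, ELMOD3, the DENN-domain gene ST5 and GTPBP2. Each had its coding sites with ADAR-SUGP1.

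Membrane trafficking gave 4 members of 22 listed genes (2.84% of members, 1.63% of all). They were the clathrin adaptor subunit AP1G2, C7orf43, the COPII coat protein SEC31B and the lipid-transfer protein VPS13D. Autophagy genes with 1 coding site were the lipid-transfer protein ATG2A, the protease ATG4D and the autophagosome tether TECPR1. The dynein adaptor subunit FAM160A2, the MHC class I loading factor TAPBP and the calcium-binding protein RCN1 of the endoplasmic reticulum had 1 each as well.

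Transporters, pumps and channels gave 5 members of 37 (3.55% of members, 2.74% of all), ABCC10, the potassium channel KCNC4, the calcium channel ORAI3, SLC26A11 and the GABA transporter SLC6A11. Both polycystins, PKD1 and PKD2, which form a receptor-channel complex, had 1 coding site with ADAR-SUGP1. The epithelial sodium channel subunit SCNN1D, the volume-regulated channel subunit LRRC8E, the magnesium transporter relative NIPAL3, MFSD3 and the synaptic vesicle protein SV2A had 1 each.

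Cell-surface and matrix genes with 1 coding site, besides LAMB2 with 2, were the fibronectin receptor subunit ITGA5, the endocytic receptor LRP2, LTBP3, LGALS3BP, the cytokine receptor TNFRSF11A and DLK2, all with ADAR-SUGP1, and CDH24 and SCARB1 with GPATCH8-ADAR. Enzymes of glycan metabolism were B4GALNT4, ST3GAL4, the galactose enzyme GALT, the sialic acid lyase NPL and the GPI-anchor enzymes PIGN and PIGO. Lipid-cleaving enzymes were the phospholipases PLA2G4A, PLCD1 and PLCG1 and the sphingomyelinase SMPD2.

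Kinases and phosphatases gave 3 members of 29 (2.13% of members, 2.15% of all), CAMK2G, MAP3K6 and MAPK8IP2, the latter a JNK scaffold taken in by its name. MAPKBP1, the death-domain adaptors TRADD and PIDD, and the cyclic GMP phosphodiesterase PDE5A had 1 coding site each with ADAR-SUGP1.

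Roles were assigned to the members after their values had been seen, and to no other listed gene, so groups by role have no background. Transcription factors and chromatin proteins were the largest such group apart from the 24 genes without a role. It held 16 genes, 15 of them with coding sites with ADAR-SUGP1. HDAC10 was the only member in the list of chromatin regulators, which counted 13 listed genes (0.709% of members, 0.964% of all). The histone-methyl-lysine readers L3MBTL1 and MPHOSPH8, the acetyltransferase complex subunit MSL1, and NFRKB of the INO80 complex had 1 coding site each. So had E4F1, FOXD2, HOXA9, the nuclear receptor NR5A2, SIX5 and the GATA cofactor ZFPM1. Zinc finger genes of the ZNF and ZFP kind gave 4 members of 47 listed (2.84% of members, 3.49% of all), ZNF213, ZNF429, ZNF594 and ZSCAN32.

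Genes of RNA processing and translation numbered 8 when roles were assigned by hand, a count without a background. Among them were FCF1 with 2 coding sites and GEMIN6 with 1, both with GPATCH8-ADAR. By the pattern lists, splicing factors, helicases and RNA-binding proteins gave 2 of 51 (1.42% of members, 3.78% of all), the helicase relative DHX32 and the exosome nuclease EXOSC10, each with a coding and a stop-codon site. Ribosomal proteins, translation factors and tRNA synthetases gave 1 of 55, EIF3G (0.709% of members, 4.08% of all). The mitochondrial ribosome protein DAP3, the mitochondrial rRNA methyltransferase TFB1M and ANKZF1, which acts in ribosome quality control, had 1 coding site each with ADAR-SUGP1. DNA replication, repair and cell cycle gave 1 of 40, CENPL (0.709% of members, 2.97% of all). MUTYH, RNASEH2C, CDKN2D, LRWD1 and the checkpoint kinase assembly factor TELO2 lay outside its patterns.

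There was no member in the lists of mitochondrial respiration, ribosome and import genes (0 of 29), nucleoporins and nuclear transport (0 of 18), RNA polymerase II, Mediator and Integrator (0 of 17), chaperones (0 of 12) and enzymes of glycolysis, lipid and nucleotide metabolism (0 of 11). The symbol patterns miss genes of like function, so these zeros are no absence of such genes. Members outside the patterns included the mitochondrial proteins DAP3 and TFB1M and the lipid-cleaving enzymes PLA2G4A, PLCD1, PLCG1 and SMPD2. Of transcripts known for endogenous editing in coding sequence 5 were on either list (0.371% of all) and 0 were members. Sites of the cells' own editing were kept off the lists and these genes are few, so nothing is read from this zero. The cytoskeleton list gave 1 of 12, CKAP5 (0.709% of members, 0.89% of all). All 17 lists together covered 37 members (26.2%) and 456 of the 1348 listed genes (33.8%). These are counts, with no test of any list, and genes that could have been called are unknown.

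**Figure D4:**
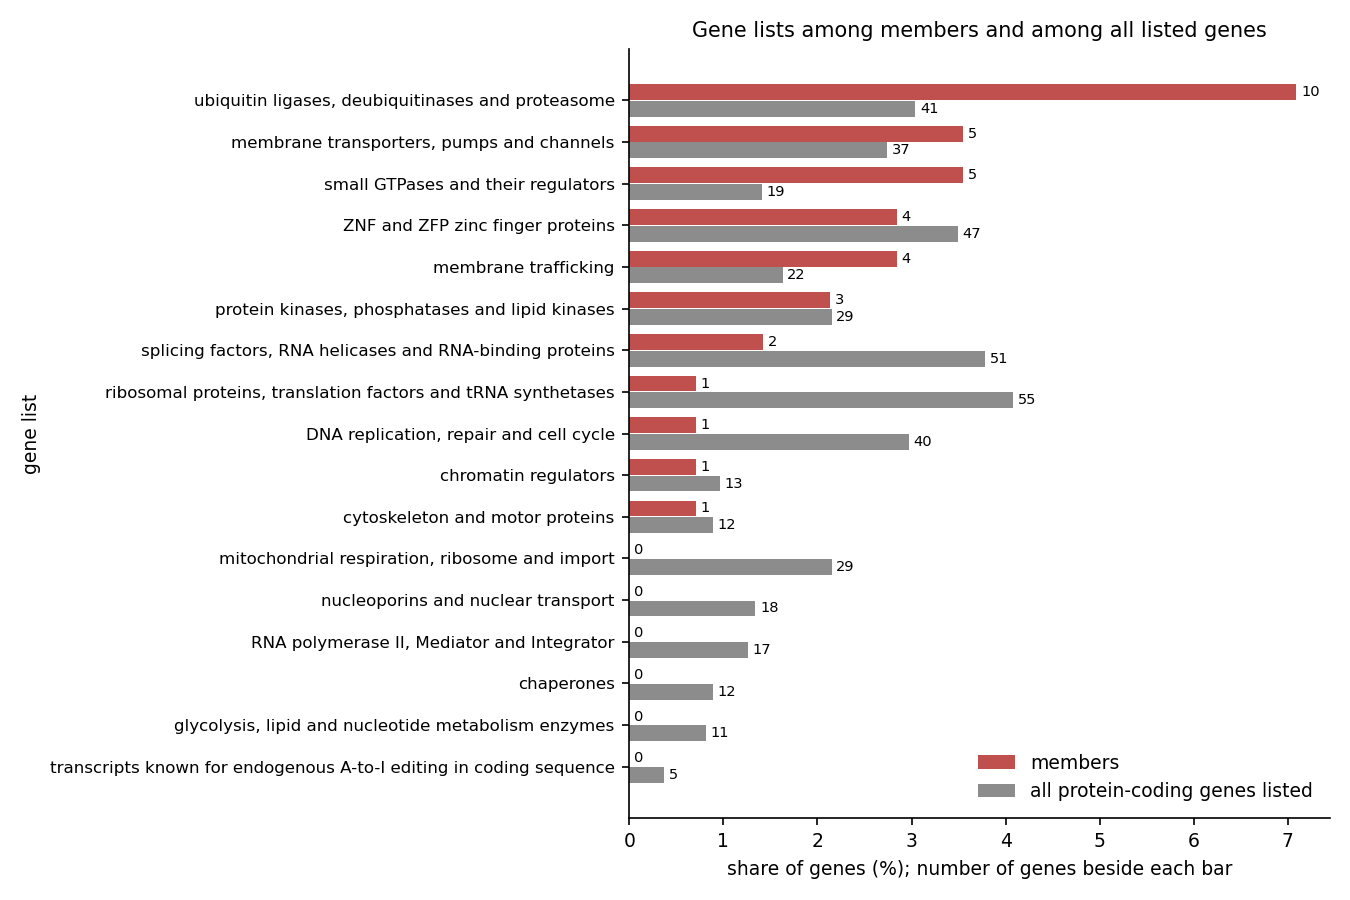
Share of genes (%) in each of 17 gene lists among the 141 genes edited in coding sequence (red) and among all 1348 protein-coding genes listed (grey), with the number of genes beside each bar. The ubiquitin list is highest in red (10 genes, 7.09%) and 6 lists hold no red gene; no list was tested.

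Metabolic enzymes with 1 coding site each with ADAR-SUGP1 were ACY1, pyruvate carboxylase PC, the pyruvate dehydrogenase phosphatase subunit PDPR, the amidoxime reductase MARC2 and the drug-metabolising cytochrome CYP2D6. The giant sarcomere protein TTN had 1 coding site. The antisense entry TTN-AS1 was also on the ADAR-SUGP1 list, with 0 in every region. Whether strand was used to assign sites is not given in the sources used here, so a site of TTN cannot be told from one of its antisense transcript. PKD1, PDPR and CYP2D6 have near-identical copies elsewhere in the genome, so their sites are uncertain as to the copy.

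The other genes, to which no role was assigned, numbered 24, 23 of them with coding sites with ADAR-SUGP1. They included the protease NRD1, the rhomboid-like RHBDL1, the N-acetyltransferase relative NAT9, the lyase relative ILVBL, the tankyrase partner TNKS1BP1, the transmembrane genes TMEM214, TMEM245 and TMEM259, and ABHD8, C14orf93, C3orf67, CCDC107, DMWD, FAM173A, HAGHL, KIAA0895, KRBA1 and TBL2. All of these had 1 coding site.

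By the order of RefSeq protein-coding genes (assembly GRCh38.p14, used for order only), 6 pairs of members had at most 1 gene between them. The same count was not made for other genes, so the pairs are no trait of the members. ABCC10 and DLK2 were directly adjacent, the former with its coding site with GPATCH8-ADAR and the latter with ADAR-SUGP1. In the other 5 pairs both genes had theirs with ADAR-SUGP1, and the gene between them was not listed: ATG4D and CDKN2D around KRI1, FAM173A and HAGHL around CCDC78, PIGN and TNFRSF11A around RELCH, SIX5 and DMWD around DMPK, and WDR90 and RHBDL1 around RHOT2. A further 3 pairs had 2 genes between them.

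In base composition the promoters of the members overlapped with those of the other listed genes. RefSeq windows from 250 bases before to 50 bases after the gene start (GRCh38.p14) were matched for 113 of the 141 members and 989 of the 1207 other genes. The median GC content was 68.7% in members (quartiles 62.7 and 74.3) and 65.3% in the others (59.7 and 71.3). By fusion, it was 62.7% in members with a GPATCH8-ADAR coding site (11 of 15 matched), below the others. In members with an ADAR-SUGP1 coding site it was 68.7% (102 of 126 matched). Members ranged from 36.7% in NR5A2 to 83.7% in B4GALNT4.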

How the data were processed

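Ribosomal RNA-depleted total RNA was sequenced as paired reads, per the labels' protocols, and Trimmomatic, STAR and hg19 are named in the submitters' processing notes; versions, the site caller, its settings and the annotation were not given in the sources used here. For each fusion the authors deposited a table of whole-number counts of editing sites, not reads, per Ensembl transcript and region, per the file headers. In all 612 and 1340 rows the transcript total is intron plus coding plus both UTR counts; blank rows (572 in the GPATCH8-ADAR table) were skipped. Rows of type protein_coding (544 and 1216) were summed per gene symbol with pandas 2.3.3 in Python 3.11.15, taking each site as counted on a single transcript; the selection was tested on simulated data. Exact binomial (Clopper-Pearson) 95% intervals came from SciPy 1.17.1. How the depth of reads bears on which sites were kept in both replicates was not tested.

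The members and gene lists were chosen with earlier results of these data known, and roles outside the lists after the members' values were seen. Lists are symbol patterns, which take in some genes by name alone and miss others of like function. Named were genes with 2 or more coding sites, with a GPATCH8-ADAR coding site, on both lists, with 3 or more body sites or in a gene list, and those left out by the 3′ UTR condition; the others follow by role, except for members that are not reported here by name. A planned comparison of protein lengths was not run because no protein table was used here. RefSeq names matched 139 of 141 members, 126 as current symbols and 13 as synonyms. Whether replicates came from separate cultures is not stated. Per-library values were not analysed here.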

Additional observations from a re-analysis of the deposited data

How the results depend on the processing

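Of 58 values recomputed under 6 alternatives for 10 results, 46 stayed within 1.5 times the count or inside the interval and 12 did not. Using rows of every transcript type, the largest count over a gene's transcripts, or genes with a coding site whatever their 3′ UTR moved none of the 10 beyond these bounds. The largest count could not move any, because each result counts genes by presence of a site or on a list. Its values are among the 46 and say nothing of stability. The same holds for some other values among the 46. A share of 0 stays 0 in any part of the members. Admitting genes with a stop-codon site cannot change the coding counts per fusion. Rows of other transcript types held 0 coding sites, so they could not add members. Requiring 2 or more coding sites left 13 genes, 2 of them edited in coding sequence with GPATCH8-ADAR and 11 with ADAR-SUGP1; of these 11, 18.2% had an intronic and 54.5% a stop-codon site, and 0.00% of the 13 were on both lists. Requiring 1 listed transcript left 84 genes (8 and 76 by fusion, in the same order), of which 0.00% and 13.2% had a stop-codon site. Admitting genes with a stop-codon site raised the intronic share with ADAR-SUGP1 to 36.3% (69 of 190). It also raised the members from 141 to 210, just within 1.5 times. The intronic share with GPATCH8-ADAR rose from 0 to 19.0% (4 of 21), still inside its wide interval. These moves follow from fewer or other genes entering the count. No paired analysis was possible because the lists give 1 count per fusion and no values per replicate, and for the same reason no replicate could be left out. The alternatives for protein length were not run. Depth per library and per site is unknown, so a gene without a coding site may have lacked the reads to show one.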
